A study of Mus musculus with 32 samples.

Results

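Dbp, Tef, Hlf, Nfil3, Bhlhe40, Bhlhe41, Rora and Ciart are genes through which the circadian clock acts on other genes or by which its pace and amplitude are adjusted. They were chosen by name and make up 8 of the 54838 genes listed in the deposited table. The libraries are RNA-seq of whole muscle from 3 sites of the hind limb, taken from male mice no older than 3 months. The sick knock-in and healthy knock-in mice both carried M743T, an amino acid substitution in the enzyme of sialic acid synthesis encoded by Gne, on both alleles, and differed in whether the submitters labelled them sick. The wild-type mice carried no such change. The sources used here do not give the strain, the signs that made a mouse sick or the hour at which muscles were taken. Although the labels state 4 mice per state, nothing in them ties the libraries of 3 muscles to an animal, and p-values cover only the spread between these libraries. For gastrocnemius there were 3 sick knock-in, 3 healthy knock-in and 4 wild-type libraries. Quadriceps and tibialis had 3 sick knock-in, 4 healthy knock-in and 4 wild-type libraries apiece, which makes 32 libraries in 9 groups.

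The clock of mammalian cells is a loop in which the proteins of Clock and Arntl switch on genes that carry E-boxes in their promoters, among them the Per and Cry genes, whose products then block Clock and Arntl. Dbp, Tef and Hlf encode related leucine zipper activators that pass the rhythm on to genes with a D-box, and Nfil3 encodes a repressor that binds the same element. Bhlhe40 and Bhlhe41 (also called Dec1 and Dec2) encode repressors that occupy E-boxes, and Ciart (also called Chrono) encodes a further repressor of Clock and Arntl. Rora encodes a nuclear receptor that activates Arntl through an element at which the products of Nr1d1 and Nr1d2 repress it. In skeletal muscle the clock sets daily rhythms in fuel use, and the level of Dbp is one of its steepest readouts.

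Levels are given as CPM, the usual count of a gene relative to its library's scaled total, and changes as log2 fold changes with their standard errors from limma. A change was called at an adjusted p under 0.05. Total counts ran from 7685164 to 42588233 per library. All 8 genes were read in all 32 libraries and passed the filter on low counts in every comparison. The lowest count of Ciart, the weakest of them, was 9 in healthy quadriceps replicate 2 (95% exact Poisson interval 4.12 to 17.1, counting error only). Summed levels of 7 muscle fibre markers were 90300 to 189000 CPM in every library. Summed levels of 8 kidney tubule markers were 54.0 to 72.8 CPM in wild-type tibialis, against 0.349 to 0.595 CPM in sick and 0 to 1.63 CPM in healthy tibialis, and 7 of 7 tested fell in sick and in healthy tibialis. Umod and Slc12a1, which define kidney tubules, were both at 0 in sick and in healthy tibialis. In gastrocnemius and quadriceps these markers summed to at most 1.28 CPM, apart from 1 healthy gastrocnemius library at 21.6 CPM. Of 6 markers of fibro-adipogenic progenitors 3, 2 and 3 fell in sick gastrocnemius, quadriceps and tibialis against wild type, with summed levels of 540 to 859, 664 to 916 and 278 to 493 CPM in sick and 925 to 1190, 817 to 997 and 597 to 792 CPM in wild-type libraries. Of the erythrocyte markers 4 of 6, 1 of 5 and 0 of 5 rose, with summed levels of 169 to 303, 72.0 to 468 and 28.7 to 202 CPM in sick and 78.8 to 162, 51.0 to 99.5 and 67.3 to 220 CPM in wild-type libraries. Of 8 macrophage markers 0, 3 and 0 rose, with 101 to 264, 283 to 414 and 43.3 to 201 CPM in sick and 112 to 186, 158 to 239 and 80.0 to 202 CPM in wild-type libraries. The 4 satellite cell markers summed to 37.4 to 47.9, 27.7 to 46.0 and 27.5 to 38.2 CPM in sick libraries. In wild-type libraries they summed to 21.0 to 28.7, 24.7 to 29.2 and 18.0 to 27.1 CPM, apart in gastrocnemius and tibialis. Of these 4 markers, 1 rose and 1 fell in gastrocnemius and in quadriceps, and 1 rose and 0 fell in tibialis. Of the neutrophil markers 1 of 1, 0 of 2 and 0 of 1 rose, with sums of 2.29 to 19.7, 0.323 to 17.8 and 0.407 to 2.94 CPM in sick and at most 0.651 CPM in wild-type libraries. The muscle fibre markers themselves passed in none of the tests in gastrocnemius and quadriceps, and 2 of 7 fell in tibialis. Mitochondrial genes took 5.22% to 11.05%, 4.79% to 6.69% and 8.28% to 12.28% of counts in sick and 8.23% to 12.55%, 7.04% to 10.83% and 13.43% to 15.52% in wild-type gastrocnemius, quadriceps and tibialis, apart in quadriceps and tibialis. The sick gastrocnemius library at 11.05% was replicate 1. The part of these cells and of the mitochondrial share in the results below was not tested. Without sick replicate 2 the genes called between sick and wild type numbered 561, 83 and 957 in gastrocnemius, quadriceps and tibialis. With it they numbered 2087, 2488 and 2621. Over all single libraries left out the counts ran from 561 to 2547, 83 to 4249 and 957 to 3043. The part of the smaller sick group in these drops was not tested.

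**Figure D1:**
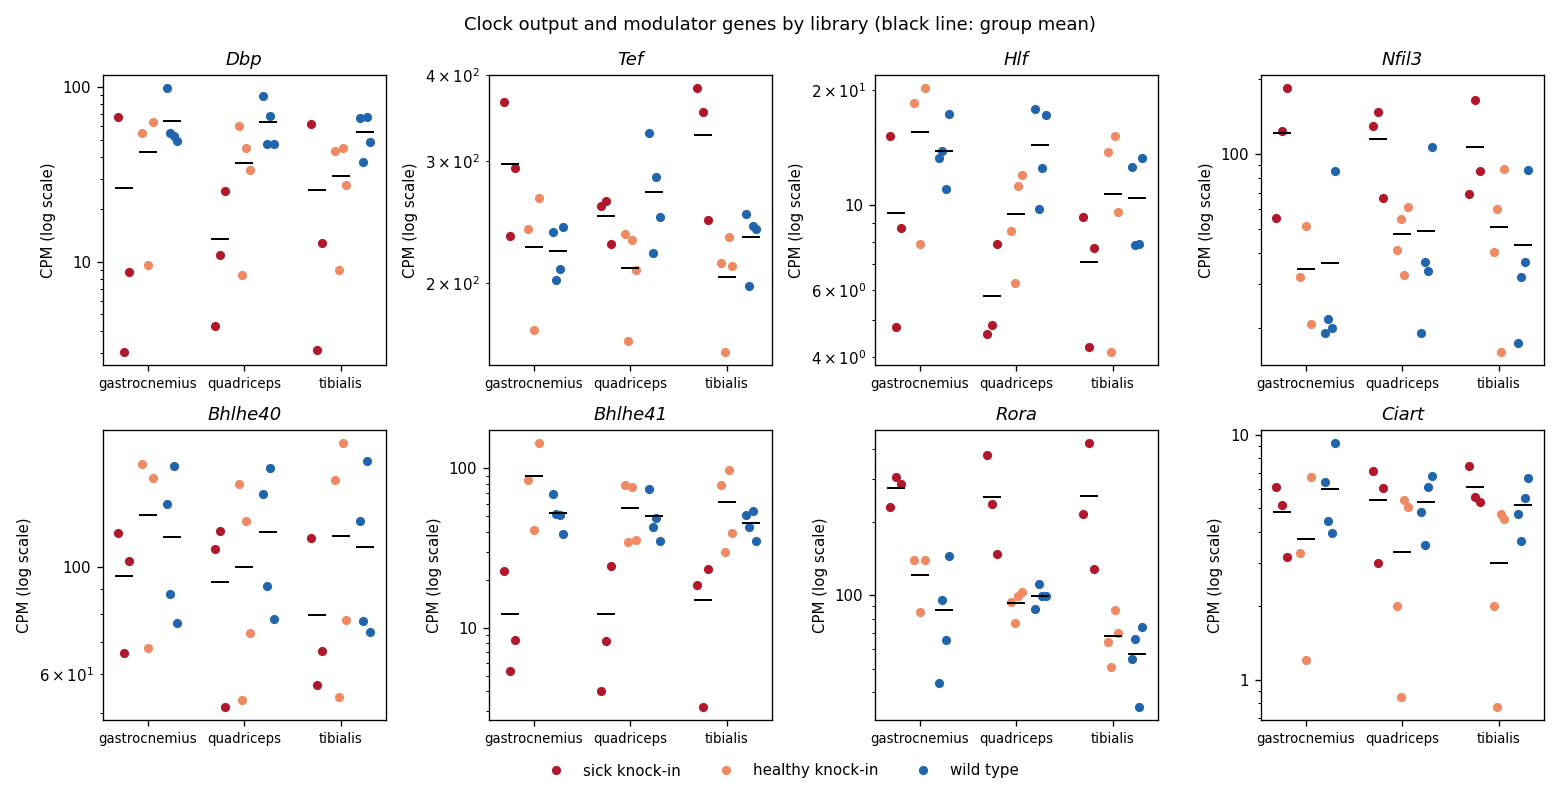
CPM of each of the 8 genes on a log scale, by muscle, with 1 point per library and a black line at the group mean. Sick knock-in points of Bhlhe41 (3.17 to 24.5 CPM) lie below all others and those of Rora (128 to 422 CPM) lie above the other libraries of their muscle, whereas those of Dbp spread from 3.03 to 67.8 CPM.

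In sick knock-in muscle Rora was higher and Bhlhe41 lower than in wild type, and both changes passed the test in each of the 3 muscles. Dbp and Hlf were lower in quadriceps. Of the 8 genes, 2 passed in gastrocnemius, 4 in quadriceps and 2 in tibialis, beside 14.7%, 18.0% and 18.1% of all genes tested. Over the 8 genes the median log2 fold change was -0.19, -0.22 and -0.12, and over all genes tested -0.03, 0.00 and -0.05, in gastrocnemius, quadriceps and tibialis. In tissue RNA a lower level may mean fewer cells of a type or less RNA per cell, and these cannot be told apart.

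Bhlhe41 (ENSMUSG00000030256, GRCm38 chr6:145858243-145865558, minus strand) had 22.8, 5.37 and 8.36 CPM in sick gastrocnemius, 84.9, 40.8 and 144 CPM in healthy gastrocnemius and 69.4, 51.6, 50.9 and 38.6 CPM in wild-type gastrocnemius. In quadriceps the sick libraries held 4.0, 8.22 and 24.5 CPM, the healthy ones 78.5, 34.7, 76.1 and 35.3 CPM and the wild-type ones 74.3, 42.7, 49.0 and 35.1 CPM. In tibialis there were 18.5, 3.17 and 23.3 CPM in sick, 78.1, 29.8, 97.3 and 39.5 CPM in healthy and 50.7, 42.5, 53.6 and 34.9 CPM in wild-type libraries. Each sick library lay below every healthy and every wild-type library of its muscle. CPM ranges of sick and wild-type libraries were apart in this way for 27.2%, 30.2% and 30.8% of all genes tested in gastrocnemius, quadriceps and tibialis. The log2 fold change of Bhlhe41 between sick and wild type was -2.36 ± 0.52, -2.45 ± 0.57 and -2.1 ± 0.59 in these muscles (adjusted p = 0.0178, 0.0199 and 0.0326). Sick replicate 2 held the lowest level in every muscle. Without it the change was -1.80, -1.68 and -1.09 (adjusted p = 0.0874, 0.135 and 0.134), still negative but past the threshold in none of the 3. The call was also lost narrowly without sick replicate 3 in gastrocnemius and quadriceps (adjusted p = 0.0528 and 0.0617), without wild-type replicates 1 or 3 in quadriceps (0.0506 and 0.0511) and without wild-type replicates 1, 2 or 3 in tibialis (0.0665, 0.0726 and 0.0710), with log2 fold changes of -2.04 or lower. Among other settings it was lost without the filter in quadriceps and tibialis (adjusted p = 0.0528 and 0.115). In tibialis it was also lost with sample quality weights, replicate number as a block or only the groups compared (0.0675, 0.0573 and 0.0531).

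Its relative Bhlhe40 (ENSMUSG00000030103, chr6:108660629-108666925, plus strand) passed in none of the muscles. It had 118, 66.4 and 103 CPM in sick gastrocnemius, 164, 68.0 and 153 CPM in healthy gastrocnemius and 135, 88.2, 162 and 76.8 CPM in wild-type gastrocnemius. The ranges of the groups overlapped there, as they did in the quadriceps, with 51.3 to 119 CPM in sick and 78 to 161 CPM in wild-type libraries, and in the tibialis, with 57.0 to 115 CPM in sick and 73.4 to 166 CPM in wild-type libraries. The log2 fold changes between sick and wild type were -0.21 ± 0.35, -0.35 ± 0.42 and -0.45 ± 0.42 (adjusted p = 0.716, 0.574 and 0.461).

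Rora (ENSMUSG00000032238, chr9:68653786-69388246, plus strand) moved the other way. It had 231, 307 and 287 CPM in sick gastrocnemius, 139, 85.4 and 139 CPM in healthy gastrocnemius and 43.6, 95.4, 65.4 and 145 CPM in wild-type gastrocnemius. In quadriceps the sick libraries held 377, 238 and 148 CPM, the healthy ones 93.6, 77.2, 99.4 and 103 CPM and the wild-type ones 87.9, 111, 99.2 and 99.1 CPM. In tibialis there were 215, 422 and 128 CPM in sick, 64.0, 50.8, 87.0 and 70.2 CPM in healthy and 54.7, 66.4, 34.7 and 73.9 CPM in wild-type libraries. Every sick library lay above every healthy and wild-type library of its muscle, and sick replicate 2 was the highest in each. The log2 fold change between sick and wild type was 1.75 ± 0.37, 1.27 ± 0.25 and 2.02 ± 0.37 in gastrocnemius, quadriceps and tibialis (adjusted p = 0.0149, 0.0125 and 0.00758). Without sick replicate 2 it was 1.69, 0.91 and 1.60 (adjusted p = 0.0567, 0.0555 and 0.0250), so that the call was kept in tibialis. In gastrocnemius it was also lost without sick replicate 3 (1.71, adjusted p = 0.0539). Rora and Bhlhe41 each changed with the same sign in all 3 muscles. Kidney tubule markers set wild-type tibialis apart, as given above, and their part in the tibialis values was not tested.

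Dbp (ENSMUSG00000059824, chr7:45705088-45710203, plus strand), the activator of D-box genes with the steepest rhythm, had the widest spread of the 8 genes in sick gastrocnemius and tibialis, taken as a ratio. Its highest CPM was 22.4 times its lowest in sick gastrocnemius and 19.6 times in sick tibialis. It had 67.8, 3.03 and 8.70 CPM in sick gastrocnemius, 54.8, 9.57 and 63.3 CPM in healthy gastrocnemius and 99.2, 54.7, 52.5 and 49.5 CPM in wild-type gastrocnemius. In quadriceps the sick libraries held 4.26, 11 and 25.4 CPM, the healthy ones 59.7, 8.43, 44.7 and 33.8 CPM and the wild-type ones 89.3, 47.6, 68.7 and 47.1 CPM. In tibialis there were 61.5, 3.13 and 12.8 CPM in sick, 43.0, 8.99, 45.1 and 27.6 CPM in healthy and 67.0, 37.6, 68.1 and 48.4 CPM in wild-type libraries. Sick replicate 1 lay within the wild-type range in gastrocnemius and tibialis, while the other sick libraries of all 3 muscles lay below every wild-type library. The quadriceps gave no sick library of that number, and sick and wild-type ranges were apart there, as for 30.2% of all genes tested. The log2 fold change between sick and wild type was -2.61 ± 0.72 in quadriceps (adjusted p = 0.0332). In gastrocnemius it was -2.37 ± 0.97 and in tibialis -2.09 ± 0.79, which did not pass (adjusted p = 0.118 and 0.0817). Without sick replicate 1 these became -3.73 and -3.16 and passed (adjusted p = 0.0235 and 0.0276), and without sick replicate 2 the quadriceps value was -1.80 and did not (adjusted p = 0.205). The quadriceps call was also lost without sick replicate 3 or wild-type replicate 1, 2 or 3, at -2.68, -2.42, -2.73 and -2.56 (adjusted p = 0.0808, 0.0749, 0.0593 and 0.0745), and without the filter or with all 32 libraries in the fit (0.0970 and 0.0621).

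Hlf (ENSMUSG00000003949, chr11:90336536-90390895, minus strand) had 4.58, 4.86 and 7.91 CPM in sick quadriceps, 8.55, 6.25, 11.2 and 12 CPM in healthy quadriceps and 17.9, 9.77, 12.5 and 17.2 CPM in wild-type quadriceps. The sick and the wild-type libraries did not overlap, as for 30.2% of all genes tested. The log2 fold change of Hlf, -1.24 ± 0.31, passed the test (adjusted p = 0.0246), but not without sick replicate 2 (-1.07, adjusted p = 0.171). Without sick replicate 3 or wild-type replicate 1 or 3 it was -1.18, -1.12 and -1.31 and just missed the threshold (adjusted p = 0.0760, 0.0541 and 0.0524), as it did with all 32 libraries in the fit (0.0587). In gastrocnemius Hlf had 4.78 to 15.2 CPM in sick and 11 to 17.4 CPM in wild-type libraries, and in tibialis 4.24 to 9.31 CPM in sick and 7.86 to 13.3 CPM in wild-type libraries. The groups overlapped in both, with log2 fold changes of -0.70 ± 0.41 and -0.67 ± 0.44 (adjusted p = 0.253 and 0.288).

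Tef (ENSMUSG00000022389, chr15:81802421-81826863, plus strand) had 365, 234 and 294 CPM in sick gastrocnemius, 259, 263 and 228 CPM in sick quadriceps and 383, 354 and 247 CPM in sick tibialis. Healthy libraries held 171 to 266, 165 to 236 and 159 to 233 CPM, and wild-type libraries 202 to 241, 221 to 330 and 198 to 252 CPM, in gastrocnemius, quadriceps and tibialis. Sick and wild-type libraries overlapped in each muscle. The log2 fold changes of 0.41 ± 0.21, -0.09 ± 0.17 and 0.48 ± 0.19 did not pass (adjusted p = 0.198, 0.726 and 0.0997), though in tibialis the value without sick replicate 4, 0.68, did (adjusted p = 0.0321), as did 0.57 with sample quality weights (adjusted p = 0.0465). Of the 3 activators of D-box genes, Dbp and Hlf thus had negative values in every muscle, and Tef in the quadriceps.

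Nfil3 (ENSMUSG00000056749, chr13:52967209-52981073, minus strand), the repressor at the D-box, had 55.4, 124 and 184 CPM in sick gastrocnemius, 32.1, 51.2 and 20.8 CPM in healthy gastrocnemius and 19.1, 21.8, 20.0 and 85.4 CPM in wild-type gastrocnemius. In quadriceps the sick libraries held 130, 148 and 66.5 CPM, the healthy ones 41.1, 55.0, 32.8 and 61.3 CPM and the wild-type ones 19.2, 37.0, 33.9 and 107 CPM. In tibialis there were 69.2, 165 and 85.7 CPM in sick, 40.3, 60.4, 16.0 and 87.4 CPM in healthy and 17.4, 32.2, 37.0 and 86.1 CPM in wild-type libraries. Wild-type replicate 4 was the only wild-type library in each muscle to reach the sick range. The log2 fold changes between sick and wild type were 1.92 ± 0.58, 1.48 ± 0.49 and 1.43 ± 0.59, just short of the threshold in gastrocnemius and quadriceps and not past it in tibialis (adjusted p = 0.0507, 0.0579 and 0.106). Without wild-type replicate 4 they were 2.44, 1.91 and 1.88 and passed (adjusted p = 0.0106, 0.0139 and 0.0469). It also passed without sick replicate 1 in gastrocnemius (2.40, adjusted p = 0.0268) and without sick replicate 4 in quadriceps (1.84, adjusted p = 0.0273). Other settings that called it were, in gastrocnemius, sample quality weights, limma-trend and all 32 libraries in the fit (adjusted p = 0.0172, 0.0491 and 0.0261) and, in quadriceps, sample quality weights (0.00549).

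The levels of Dbp and Nfil3, which act on the same element in opposite directions, were also set side by side in each library as log2 of Dbp CPM over Nfil3 CPM, which covers no difference in transcript length. Sick libraries gave 0.29, -5.35 and -4.40 in gastrocnemius, -4.93, -3.75 and -1.39 in quadriceps and -0.17, -5.72 and -2.74 in tibialis. Healthy libraries ran from -2.75 to 1.61. Wild-type libraries gave 2.38, 1.33, 1.39 and -0.79 in gastrocnemius, 2.22, 0.36, 1.02 and -1.18 in quadriceps and 1.95, 0.22, 0.88 and -0.83 in tibialis. Sick replicate 2 was the lowest in each muscle, healthy replicate 2 the lowest of the healthy libraries and wild-type replicate 4 the lowest of the wild-type ones.

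Ciart (ENSMUSG00000038550, chr3:95878503-95882251, minus strand) had 6.13, 5.16 and 3.16 CPM in sick gastrocnemius, 3.30, 1.2 and 6.69 CPM in healthy gastrocnemius and 6.40, 4.42, 3.95 and 9.24 CPM in wild-type gastrocnemius. In quadriceps the sick libraries held 7.11, 2.99 and 6.06 CPM, the healthy ones 1.99, 0.852, 5.41 and 5.05 CPM and the wild-type ones 4.81, 3.54, 6.09 and 6.75 CPM. In tibialis there were 7.47, 5.55 and 5.29 CPM in sick, 1.99, 0.771, 4.74 and 4.51 CPM in healthy and 4.76, 3.68, 5.50 and 6.66 CPM in wild-type libraries. No muscle kept sick and wild-type libraries apart, and the log2 fold changes were -0.17 ± 0.45, 0.15 ± 0.47 and 0.22 ± 0.43 (adjusted p = 0.827, 0.845 and 0.743). Healthy replicate 2 was the lowest library of each muscle. The gene overlaps C920021L13Rik on the other strand, which had 0.351 to 1.71 CPM, and the strand option of the counting is not given, so reads of the pair may not be told apart. Dbp overlaps Sphk2 in the same way, at 10.5 to 22.7 CPM, above the level of Dbp in the lowest libraries. The overlapping partners of Tef, Bhlhe40, Bhlhe41 and Rora had at most 0.680 CPM.

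**Figure D2:**
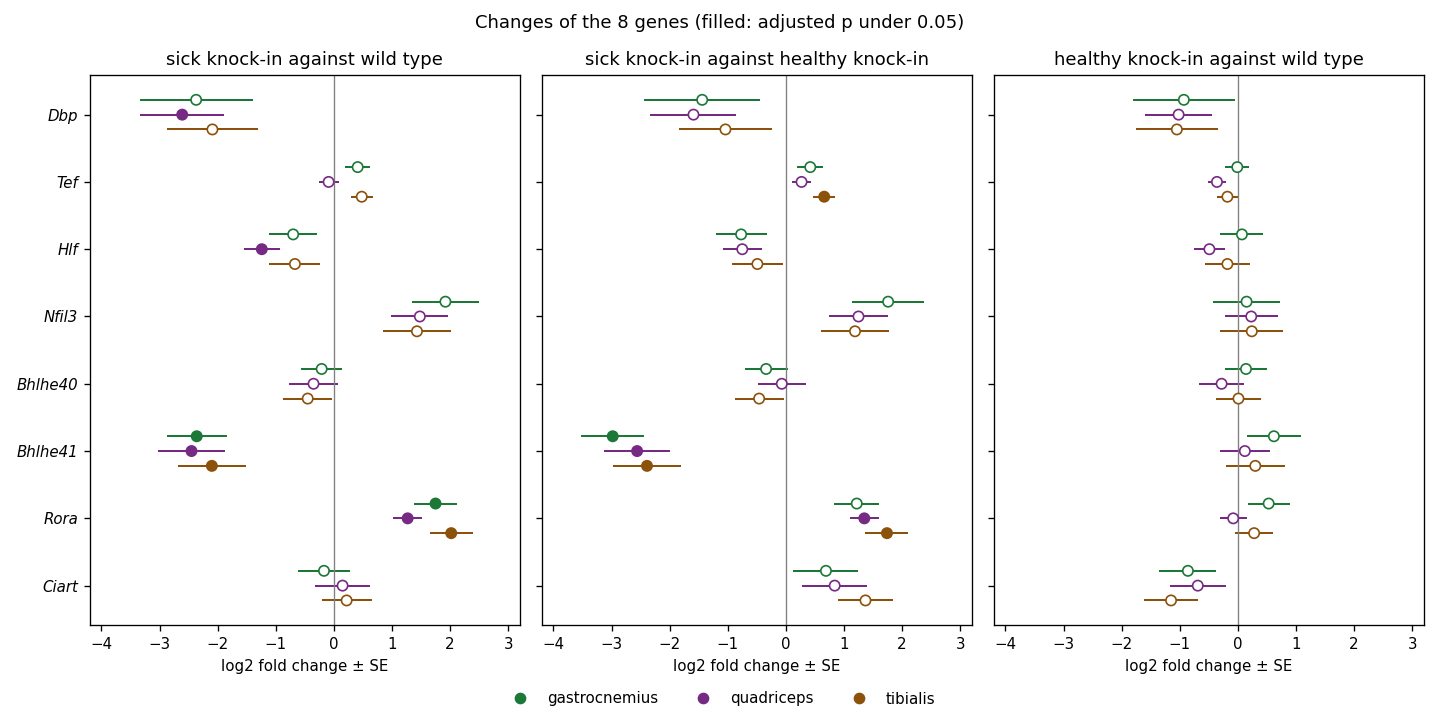
Log2 fold change ± SE of the 8 genes in gastrocnemius, quadriceps and tibialis for sick against wild type, sick against healthy and healthy against wild type, with filled points at an adjusted p under 0.05. Bhlhe41 is filled in both comparisons of sick muscle in all 3 muscles, and no point is filled for healthy against wild type.

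The promoters of Ciart, Bhlhe41 and Tef are shown because they hold the E-box, CACGTG, the element through which Clock and Arntl act. RefSeq windows of GRCm38.p6 were matched for 7 of the 8 genes, with none for Bhlhe40 and a pair of start sites for Tef. The 250 bases before the start are printed 5′ to 3′ on the strand of the gene, with each E-box in capitals. They lie at chr3:95882229-95882478 (minus strand) for Ciart, chr6:145865421-145865670 (minus strand) for Bhlhe41 and chr15:81811164-81811413 (plus strand) for Tef.
Ciart: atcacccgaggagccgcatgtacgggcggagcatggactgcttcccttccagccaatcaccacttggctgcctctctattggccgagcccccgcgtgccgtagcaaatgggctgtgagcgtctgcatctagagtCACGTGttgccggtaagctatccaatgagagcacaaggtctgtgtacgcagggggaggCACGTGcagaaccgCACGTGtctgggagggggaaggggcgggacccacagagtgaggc
Bhlhe41: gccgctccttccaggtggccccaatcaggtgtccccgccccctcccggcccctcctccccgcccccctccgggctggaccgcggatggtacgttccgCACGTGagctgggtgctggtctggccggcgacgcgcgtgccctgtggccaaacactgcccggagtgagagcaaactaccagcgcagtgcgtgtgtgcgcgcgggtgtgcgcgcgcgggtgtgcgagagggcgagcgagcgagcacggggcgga
Tef: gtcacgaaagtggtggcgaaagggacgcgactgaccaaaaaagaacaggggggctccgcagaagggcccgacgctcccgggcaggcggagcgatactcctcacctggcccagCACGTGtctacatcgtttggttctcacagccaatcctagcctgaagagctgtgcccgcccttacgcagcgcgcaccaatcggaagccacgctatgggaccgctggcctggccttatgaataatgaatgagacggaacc

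Ciart held the E-box at 3 places, whose first bases lie 116, 58 and 44 bases before the start, Bhlhe41 at 1 and Tef at 1 in each of its windows. Of all 32851 RefSeq windows of 300 bases, 250 before to 50 after a start, 7.15% hold this motif, which reads the same on both strands. The related letters CACGTT (4.68% of windows), the D-box TTANGTAA (2.32%), a full glucocorticoid response element (0.0396%) and a heat shock element (0.603%) were searched on both strands and are in none of the windows of these genes. A cyclic AMP response element, TGACGTCA (1.79% of windows), stands in that of Hlf, and the core of a ROR element, AGGTCA (16.3% of windows), in that of Nfil3, on the other strand. None of the 7 motifs is in the windows of Dbp or Rora. These matches describe letters only, and no binding was measured.

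Set against the healthy knock-in mice, which share the genotype, sick mice had more Rora in quadriceps and tibialis, and again less Bhlhe41 in every muscle. Of the 8 genes, 1 passed in gastrocnemius, 2 in quadriceps and 3 in tibialis, beside 14.1%, 17.6% and 11.3% of all genes tested. The sick libraries are those compared with wild type above. Bhlhe41 had a log2 fold change of -2.98 ± 0.54, -2.56 ± 0.57 and -2.39 ± 0.59 in the muscles in that order (adjusted p = 0.00820, 0.0169 and 0.0306). Rora rose by 1.35 ± 0.25 in quadriceps and 1.74 ± 0.37 in tibialis (adjusted p = 0.00999 and 0.0204), and its value in gastrocnemius was 1.22 ± 0.39 (adjusted p = 0.0619). That value passed with sample quality weights, limma-trend, only the groups compared and all 32 libraries in the fit (adjusted p = 0.0231, 0.0492, 0.0243 and 0.0275). Tef rose in tibialis, by 0.66 ± 0.19 (adjusted p = 0.0474), where sick libraries at 247 to 383 CPM lay above healthy libraries at 159 to 233 CPM. Ranges were apart there for 28.9% of all genes tested.

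Nfil3 lay higher in every sick library than in every healthy one in gastrocnemius and quadriceps, where 37.5% and 24% of all genes tested had ranges that were apart, and its log2 fold changes of 1.76 ± 0.62 and 1.25 ± 0.50 did not pass (adjusted p = 0.0817 and 0.101), though they did with sample quality weights (0.0318 and 0.0306). Dbp did not pass in any muscle, at -1.44 ± 1.0, -1.59 ± 0.74 and -1.04 ± 0.80 (adjusted p = 0.361, 0.152 and 0.390). Ciart had 5.29 to 7.47 CPM in sick and 0.771 to 4.74 CPM in healthy tibialis, apart from each other, as were 28.9% of all genes tested, with a log2 fold change of 1.37 ± 0.48 (adjusted p = 0.0787). Without sick replicate 2 the tibialis values of Bhlhe41, Rora and Tef were -1.40, 1.31 and 0.60 and passed no longer (adjusted p = 0.0981, 0.0640 and 0.127), nor did Bhlhe41 in quadriceps (-1.79, adjusted p = 0.110), where the call was also lost without sick replicate 3 (adjusted p = 0.0540). In tibialis the call of Tef was lost without sick replicate 1 or any 1 healthy library (adjusted p = 0.0611 to 0.138), that of Bhlhe41 without sick replicate 1 or healthy replicate 1, 2 or 3 (0.0533 to 0.0606) and that of Rora without sick replicate 1 or healthy replicate 2 (0.0557 each). All 3 tibialis calls, of Tef, Bhlhe41 and Rora, were lost with only the groups compared (0.0887, 0.0811 and 0.0559). They were also lost with replicate number as a block (0.0773, 0.0539 and 0.0604). Bhlhe41 was lost without the filter in quadriceps and tibialis (0.0508 and 0.0973) and with only the groups compared in quadriceps (0.0607). Dbp in quadriceps passed without healthy replicate 2 (-2.20, adjusted p = 0.0376) and Nfil3 in gastrocnemius without sick replicate 1 (2.24, adjusted p = 0.0423).

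Between healthy knock-in and wild-type mice none of the 8 genes passed, beside 0.00706%, 0.0362% and 0.496% of all genes tested in gastrocnemius, quadriceps and tibialis. At an unadjusted limma p under 0.05 there were 0, 1 and 1, namely Tef in quadriceps (-0.36 ± 0.15, unadjusted p = 0.0361) and Ciart in tibialis (-1.15 ± 0.46, unadjusted p = 0.0283). Dbp had log2 fold changes of -0.93 ± 0.88, -1.02 ± 0.58 and -1.05 ± 0.70 and Ciart of -0.86 ± 0.49, -0.69 ± 0.48 and -1.15 ± 0.46. Without healthy replicate 2 these values were nearest to 0, at -0.07, -0.42 and -0.51 for Dbp and -0.22, -0.21 and -0.53 for Ciart. For Bhlhe41 and Rora, which changed in sick muscle, the healthy values were 0.62 ± 0.46, 0.12 ± 0.43 and 0.30 ± 0.51 and 0.53 ± 0.36, -0.08 ± 0.23 and 0.28 ± 0.33.

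Libraries that carry the same replicate number in different muscles had like levels of these genes within a state. Healthy replicate 2 held 9.57, 8.43 and 8.99 CPM of Dbp in gastrocnemius, quadriceps and tibialis, where the other healthy libraries held 27.6 to 63.3 CPM. It also had the lowest level among the healthy libraries of its muscle for Tef, Hlf, Bhlhe40, Bhlhe41, Rora and Ciart in all 3 muscles. Sick replicate 2 held the lowest Dbp, Hlf and Bhlhe41 and the highest Rora of the sick libraries in each muscle, and wild-type replicate 4 the highest Nfil3 and Ciart of the wild-type ones. Of the variance of log2 CPM within groups of a state, 94.8% lay between replicate numbers for Dbp, 94.0% for Bhlhe41, 93.5% for Ciart, 90.5% for Bhlhe40, 90.4% for Nfil3, 84.9% for Hlf, 81.3% for Tef and 74.5% for Rora, beside a median of 60.4% over all genes tested. The labels do not say that a number marks a mouse, and whether the hour of collection moved with it was not tested.

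**Figure D3:**
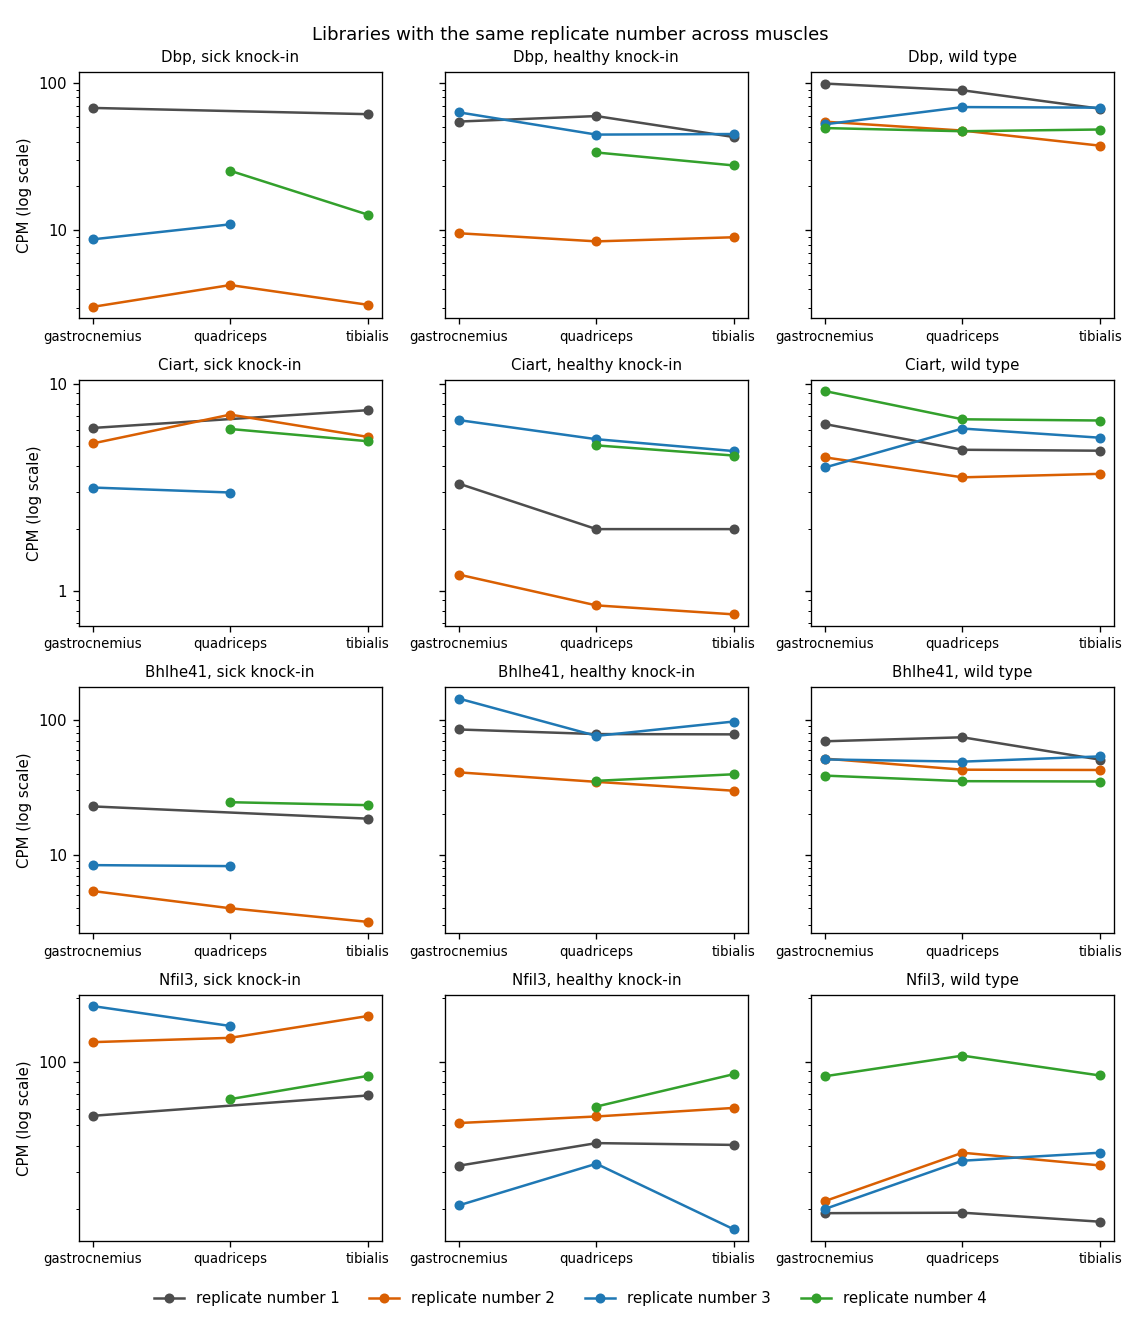
CPM on a log scale of Dbp, Ciart, Bhlhe41 and Nfil3 in the 3 muscles, by state, with a line joining libraries that carry the same replicate number (for sick replicate 1, which has no quadriceps library, from gastrocnemius straight to tibialis). Healthy replicate 2 runs lowest among the healthy libraries for Dbp (8.43 to 9.57 CPM) and Ciart (0.771 to 1.2 CPM).

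Some core clock genes also stood apart in these libraries. Of those given here, Arntl, Npas2 and Per2 were picked after their values were seen. How many of all genes were highest or lowest in these libraries was not counted. In healthy replicate 2, Arntl had 24.1, 28.1 and 25.6 CPM in gastrocnemius, quadriceps and tibialis, above the 7.58 to 19.4 CPM of the other healthy libraries. Npas2, a partner of Arntl in place of Clock, had 5.28, 5.78 and 4.28 CPM there, the highest of all libraries of each muscle. Per2, a repressor of the loop, had 4.62, 4.07 and 4.92 CPM, the lowest of all libraries of each muscle, and Nr1d1 had 85.0, 79.5 and 79.3 CPM, the lowest of the healthy libraries. In sick replicate 2 Arntl had 33.7, 34.7 and 49.3 CPM, the highest of each muscle, while in sick replicate 1, where Dbp was high, it had 5.50 and 5.20 CPM in gastrocnemius and tibialis, the lowest of each muscle.

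Across groups, 15 of the 16 core clock genes followed could be tested, all but Rorb, which had at most 0.526 CPM. In sick against wild-type muscle 5, 4 and 4 of them rose and 1, 1 and 1 fell in gastrocnemius, quadriceps and tibialis, where 8.22%, 10.5% and 8.44% of all genes tested rose and 6.52%, 7.49% and 9.61% fell. The median log2 fold change over the list was 0.50, 0.47 and 0.59, against -0.03, 0.00 and -0.05 over all genes tested. The list was chosen with results of these libraries known and is no independent evidence of a direction. Nr1d1, which opposes Rora, was the gene that fell, with log2 fold changes of -1.13 ± 0.30, -1.16 ± 0.31 and -1.09 ± 0.29 (adjusted p = 0.0302, 0.0303 and 0.0268). The casein kinase genes Csnk1e and Csnk1d, whose products mark the Per proteins for removal, rose by 0.91 ± 0.16, 0.73 ± 0.18 and 0.75 ± 0.19 and by 0.61 ± 0.15, 0.54 ± 0.13 and 0.59 ± 0.19. None of the core clock genes passed between healthy knock-in and wild-type mice. Other settings and fits without single libraries were not read for the genes of this list or of the lists below.

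Per1, whose transcript answers to glucocorticoids as well as to the clock, had 177, 209 and 155 CPM in sick gastrocnemius. It had 47.4, 64.9, 21.6 and 116 CPM in wild-type gastrocnemius, with no overlap, as for 27.2% of all genes tested. It rose in gastrocnemius and tibialis by 1.71 ± 0.48 and 1.97 ± 0.51 (adjusted p = 0.0382 and 0.0236), and its value in quadriceps was 1.59 ± 0.50 (adjusted p = 0.0510). Cry2, a repressor of the loop, rose in gastrocnemius and quadriceps by 2.20 ± 0.29 and 1.76 ± 0.50 (adjusted p = 0.00272 and 0.0364), with 1.70 ± 0.56 in tibialis (adjusted p = 0.0533). Sick replicate 2 held 251, 302 and 350 CPM of Cry2, the highest in each muscle. Per1 and Cry2, and Arntl, Npas2 and Per2 above, fall outside the rule for named genes and were chosen after their values were seen.

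**Figure D4:**
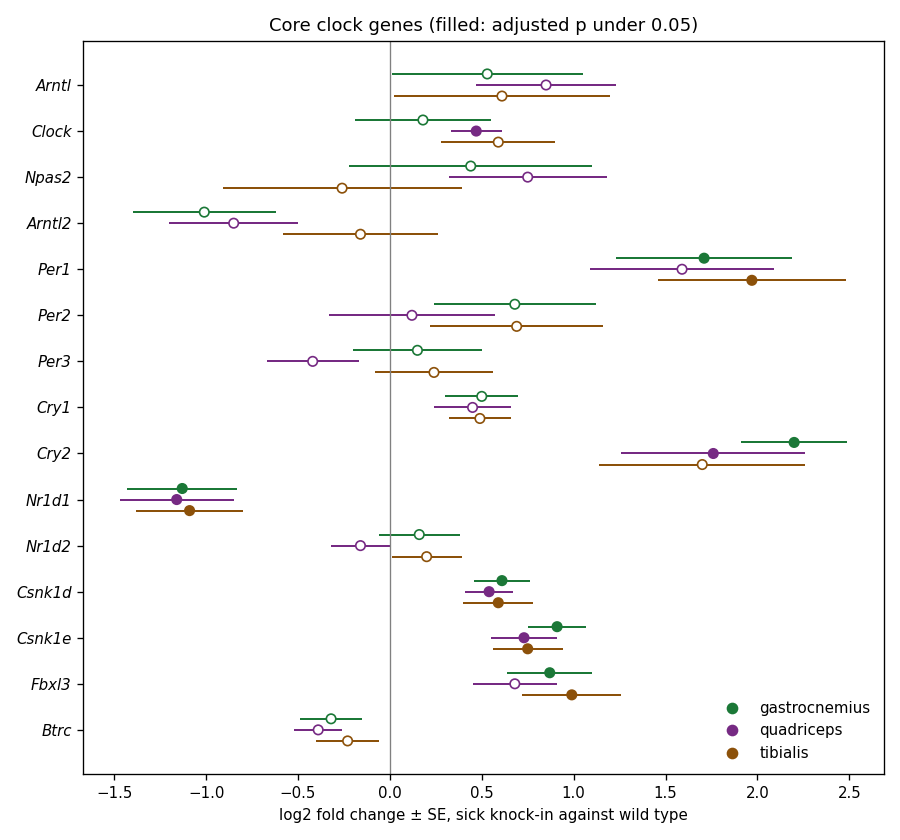
Log2 fold change ± SE between sick knock-in and wild type for 15 core clock genes in the 3 muscles, with filled points at an adjusted p under 0.05. Csnk1d and Csnk1e are filled to the right of 0 and Nr1d1 to the left of 0 in all 3 muscles, while Arntl, Per2, Per3 and Nr1d2 are open throughout.

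Of 11 other genes known to follow the clock, 0, 0 and 1 rose and 1, 0 and 1 fell in sick gastrocnemius, quadriceps and tibialis against wild type, with a median log2 fold change of 0.17, 0.24 and -0.17. Over all genes tested 8.22%, 10.5% and 8.44% rose and 6.52%, 7.49% and 9.61% fell, so 1 of 11 is near the background. The genes that passed were Lpin1, a phosphatidate phosphatase, in tibialis (0.84 ± 0.22, adjusted p = 0.0247), and Alas1, the first enzyme of heme synthesis, which was lower in gastrocnemius (-0.73 ± 0.22, adjusted p = 0.0465) and tibialis (-1.0 ± 0.23, adjusted p = 0.0164). Both were named after their values were seen, as were Usp2 and Wee1, known targets of the clock, which had values between -0.34 and 0.17 that did not pass.

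Glucocorticoids reset peripheral clocks, and 12 genes that respond to them were followed beside Per1. Of these 8, 8 and 7 rose and none fell in sick gastrocnemius, quadriceps and tibialis, beside 8.22%, 10.5% and 8.44% of all genes tested that rose. The median log2 fold change of the list was 1.96, 2.03 and 1.99, and that of all genes tested -0.03, 0.00 and -0.05. Cebpd rose by 3.72 ± 0.76, 4.12 ± 0.68 and 3.68 ± 0.85 (adjusted p = 0.0140, 0.0101 and 0.0168) and Foxo1, a driver of muscle protein breakdown, by 1.85 ± 0.52, 2.1 ± 0.59 and 2.01 ± 0.61 (adjusted p = 0.0383, 0.0351 and 0.0411). Klf15, a regulator of amino acid breakdown, rose by 2.22 ± 0.35, 2.19 ± 0.49 and 2.19 ± 0.57 (adjusted p = 0.00541, 0.0178 and 0.0241). Nfkbia, which restrains inflammatory transcription, rose by 1.40 ± 0.27, 1.88 ± 0.31 and 1.41 ± 0.27 (adjusted p = 0.00939, 0.0101 and 0.00936). Of 8 tested genes that respond to low oxygen, a stimulus that raises Bhlhe40 in other cells, 4, 2 and 2 rose and 1, 1 and 2 fell, beside the same shares of all genes that rose and 6.52%, 7.49% and 9.61% that fell. Their median log2 fold change was 0.30, 0.49 and 0.31. Egln3, a prolyl hydroxylase that senses oxygen, rose by 4.08 ± 0.42, 4.02 ± 0.79 and 2.35 ± 0.56 (adjusted p = 0.00113, 0.0127 and 0.0189), and P4ha1, a collagen prolyl hydroxylase, fell, with log2 fold changes of -1.65 ± 0.26, -1.44 ± 0.30 and -1.10 ± 0.27 (adjusted p = 0.00469, 0.0150 and 0.0216). None of these lists held a gene that passed between healthy knock-in and wild-type mice. The lists were chosen with earlier results of these data known. Whether glucocorticoids or low oxygen had a part in the levels of the 8 genes was not tested.

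Whether the changes between sick and wild-type mice differed between muscles was tested directly, in a fit that took same-numbered libraries of different muscles as independent. None of the 8 genes passed for quadriceps minus gastrocnemius, tibialis minus gastrocnemius or tibialis minus quadriceps, beside 0%, 0.204% and 0.243% of all genes tested, and 0, 0 and 1 had an unadjusted limma p under 0.05. That 1 was Tef, whose change was greater in tibialis than in quadriceps by 0.58 ± 0.26 (unadjusted p = 0.0360, adjusted p = 0.616). For Dbp, called in quadriceps alone, the change in tibialis minus that in quadriceps was 0.53 ± 1.30 and in quadriceps minus gastrocnemius -0.24 ± 1.34. For Hlf these were 0.59 ± 0.63 and -0.57 ± 0.62, so the calls in 1 muscle do not show that the muscles differed. These standard errors do not use the sharing of replicate numbers across muscles, which held 94.8% of the variance within groups for Dbp and 84.9% for Hlf. With replicate number within a state as a block, 0, 20 and 40 genes were called over the whole table. The blocked values of Dbp and Hlf are not given here.

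Among wild-type muscles none of the 8 genes passed for quadriceps against gastrocnemius, tibialis against gastrocnemius or tibialis against quadriceps, beside 1.07%, 2.58% and 5.67% of all genes tested, and 0, 0 and 1 had an unadjusted limma p under 0.05. That gene was Rora, at 54.7, 66.4, 34.7 and 73.9 CPM in tibialis and 87.9, 111, 99.2 and 99.1 CPM in quadriceps, a log2 fold change of -0.82 ± 0.32 (unadjusted p = 0.0227, adjusted p = 0.148) with no overlap, as for 17.0% of all genes tested. With replicate number as a block the genes called over the whole table numbered 253, 704 and 1610, against 158, 380 and 834 without it, and again none was among the 8.

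Per kilobase of exon, which allows levels of different genes to be compared, group means in sick muscle ran from 52.6 to 59.8 CPM per kilobase for Nfil3, 31.8 to 41.7 for Tef, 19.4 to 21.0 for Rora, 16.9 to 20.4 for Bhlhe40, 4.53 to 8.86 for Dbp, 2.13 to 2.70 for Ciart, 1.81 to 2.23 for Bhlhe41 and 0.866 to 1.43 for Hlf. In wild-type muscle the order was Tef at 28.2 to 34.5, Bhlhe40 at 23.5 to 25.1, Dbp at 18.5 to 21.4 and Nfil3 at 18.0 to 24.3, then Bhlhe41 at 6.76 to 7.83, Rora at 4.40 to 7.60, Ciart at 2.28 to 2.65 and Hlf at 1.56 to 2.14 CPM per kilobase. Neighbours whose ranges overlapped were Rora and Bhlhe40, and Ciart and Bhlhe41, in sick muscle, and Bhlhe40, Dbp and Nfil3 in part, and Bhlhe41 and Rora, in wild-type muscle. In healthy knock-in muscle Tef at 26.0 to 28.7, Bhlhe40 at 21.3 to 27.3 and Nfil3 at 17.1 to 25.2 came before Dbp at 10.4 to 14.2, Bhlhe41 at 8.35 to 13.4 and Rora at 5.20 to 9.26, with Hlf at 1.42 to 2.33 and Ciart at 1.33 to 1.65 CPM per kilobase.

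The authors' deposited table holds their own test of the same groups. For sick against wild type it lists Bhlhe41 at log2 fold changes of -2.09, -2.04 and -1.62 (adjusted p = 0.00427, 0.00827 and 0.0314) and Rora at 1.66, 1.36 and 2.15 (adjusted p = 0.000251, 0.00598 and 8.2e-07), in the muscle order used above. Dbp in quadriceps stands there at -2.22 with an adjusted p of 0.0792, Hlf in quadriceps at -1.30 with 0.0228 and Nfil3 in gastrocnemius at 1.74 with 0.0330 in the authors' deposited table. In gastrocnemius and tibialis the authors' values for Dbp were -1.25 and -1.11 (adjusted p = 0.417 and 0.480), smaller in size than the limma values. For sick against healthy the authors' deposited table lists Bhlhe41 at -2.87, -2.21 and -2.04 (adjusted p = 0.000108, 0.00302 and 0.00556) and Rora at 1.2, 1.44 and 1.91 (adjusted p = 0.0227, 0.00263 and 1.77e-05).

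Likeness of pattern was taken as Pearson's r of log2 CPM over the 32 libraries, which share 9 groups, searched over 13552 genes tested in all muscles. Genes of the clock stood among the nearest to Tef, namely Nr1d2 at 0.82 and Per3 at 0.77, and to Ciart, namely Nr1d2 at 0.78 and Per2 at 0.74. Near to Dbp were Hfe2 at 0.85 and Pdp1 at 0.84. The nearest to Nfil3 were Foxo1 at 0.90, BB123696 at 0.90 and Bcl2l1 at 0.88, and for Hlf Vti1a at 0.83, Mr1 at 0.76 and A930033H14Rik at 0.76. The 2 genes changed in all sick muscles had closer ones, with Brpf3 at 0.97 and Tgfbr1 at 0.96 for Rora and Dynll2 at 0.95, Haghl at 0.94 and Lrrc38 at 0.94 for Bhlhe41. Bhlhe40 had the weakest likeness to any gene, with 5830417I10Rik at 0.73, Kcnj8 at 0.73 and 5930430L01Rik at 0.71.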

How the data were processed

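Per the submitters' processing notes, the tools named are cutadapt 1.18, TopHat2 2.1.1, HTSeq 0.6.0 and DESeq2 1.22.1 with the build GRCm38, and the sources used here give no settings, strand option or annotation release. The authors deposited raw counts per gene, the same counts divided by 1 size factor per library, and their own log2 fold changes with p-values. Of 54838 genes listed, 6252 carry no value, and 48586 carry counts. Because of the missing values the raw columns were not accepted as plain counts by the check used, although every value present is a whole number. The genes without value were left out, and limma-voom (limma 3.58.1 in R 4.3.3) was run on the rest. Planned fits with edgeR and DESeq2 were not run. Libraries were scaled by trimmed means (trims 0.3 and 0.05), low genes were filtered at the CPM of 10 counts in the median library, reached by a number of libraries equal to the smallest group, with at least 15 counts in all, and p-values were adjusted by Benjamini-Hochberg over all genes tested, at a threshold of 0.05. The 3 states of a muscle shared a fit, differences between muscles were fitted over all libraries, and wild-type muscles over 12. Total counts per library had a median of 15766791.5. Promoters came from RefSeq, GRCm38.p6, and gene positions from GENCODE vM21. CPM per kilobase used the union of exons.

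Same-numbered libraries of different muscles of a state mostly deviated together (28 pairs, correlation 0.02 to 0.56, median 0.42, 26 over 0.1). The pairs not over 0.1 were wild-type gastrocnemius and tibialis, replicate 1 at 0.02 and replicate 3 at 0.08. Between states they did not (29 pairs, -0.17 to 0.26, median 0.00). The 8 genes and the lists were chosen with earlier results of these data known. By the rule for named genes, core clock, glucocorticoid and hypoxia genes were named where they passed in all 3 muscles between sick and wild type, up to 4 a list by mean size of change (exceptions are marked in the text), and genes nearest in pattern were the 3 with the highest r. A few genes of the lists and of the nearest patterns are not reported here, and the counts and medians of the lists leave them out.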

Additional observations from a re-analysis of the deposited data

Results flagged for a closer look

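Each of the 8 genes was examined in each group of 4 libraries, which makes 40 sets of 4 values, and chance alone would set 1 library apart in about 1 set of 20. In 2 sets 1 library lay far from the rest. Dbp had 99.2 CPM in wild-type gastrocnemius replicate 1, against 54.7, 52.5 and 49.5 CPM in the other 3. Nfil3 had 85.4 CPM in wild-type gastrocnemius replicate 4, against 19.1, 21.8 and 20.0 CPM in the other 3. The same-numbered wild-type libraries of quadriceps and tibialis held 107 and 86.1 CPM of Nfil3.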

How the results depend on the processing

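The counts of the 8 genes past the threshold depended on sick replicate 2 and on the model. Between sick and wild type there were 2, 4 and 2 in gastrocnemius, quadriceps and tibialis. Without all sick replicate 2 libraries there were 0, 0 and 1, without the filter quadriceps gave 2 and tibialis 1, with all 32 libraries in a fit quadriceps gave 2, and with only the groups compared tibialis gave 1. Gastrocnemius gave 3 with sample quality weights, limma-trend, the replicate block or all 32 libraries, and quadriceps 5 with sample quality weights, in each case through Nfil3. Between sick and healthy there were 1, 2 and 3. Gastrocnemius gave 3 with sample quality weights, 2 with limma-trend, 2 with only the groups compared and 2 with all 32 libraries, quadriceps gave 1 without the filter, 1 without sick replicate 2 and 1 with only the groups compared and 3 with sample quality weights, and tibialis gave 2 without the filter, 0 without sick replicate 2 and 0 with only the groups compared. With replicate number as a block, sick against wild type gave 3 in gastrocnemius, 4 in quadriceps and 1 in tibialis and sick against healthy 3, 2 and 0 (gained in gastrocnemius were Nfil3 in both, adjusted p = 0.0155 and 0.0336, and Rora against healthy, 0.0423), although numbers did not pair libraries across states. Sample quality weights called 1 gene, against 0, between wild-type tibialis and quadriceps. Leaving out single libraries gave 0 to 4, 0 to 5 and 1 to 3 between sick and wild type and 1 to 2, 1 to 3 and 0 to 3 between sick and healthy, in the same order. The other comparisons gave 0 in each of these.

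Signs turned mostly for values near 0. Larger values that turned included Dbp in tibialis between sick and healthy (-1.04 ± 0.80). Bhlhe40 in tibialis between sick and wild type (-0.45 ± 0.42) also turned. For healthy against wild type, Tef in gastrocnemius was 0.01 with median-of-ratios scaling, 0.08 with weights, 0.02 with the block and 0.00 with all 32 libraries, Bhlhe40 in gastrocnemius was -0.08 with the block, and Bhlhe40 in tibialis was -0.02 without the filter, -0.00 with limma-trend and -0.01 with the block. For sick against wild type, Ciart in gastrocnemius was 0.02 with the block, Ciart in quadriceps -0.24 with weights, -0.01 with limma-trend, -0.03 with the block and -0.15 without sick replicate 2, and Bhlhe40 0.02 in gastrocnemius without sick replicate 2 and 0.01 in tibialis with weights. For sick against healthy, Bhlhe40 in quadriceps was 0.08 with weights and 0.10 with the block, and Dbp in tibialis 0.11 without sick replicate 2.

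With single libraries left out, values that crossed 0 between sick and wild type were Bhlhe40 (-0.39 to 0.02) and Ciart (-0.36 to 0.04) in gastrocnemius, and Tef (-0.19 to 0.01), Bhlhe40 (-0.58 to 0.02) and Ciart (-0.15 to 0.43) in quadriceps. Between sick and healthy they were Bhlhe40 in quadriceps (-0.36 to 0.30) and Dbp in tibialis (-2.11 to 0.11). Between healthy and wild type they were Tef (-0.13 to 0.16), Hlf (-0.17 to 0.49), Nfil3 (-0.19 to 0.68) and Bhlhe40 (-0.10 to 0.53) in gastrocnemius, Nfil3 (-0.14 to 0.66), Bhlhe40 (-0.51 to 0.00), Bhlhe41 (-0.08 to 0.33) and Rora (-0.14 to 0.02) in quadriceps, and Hlf (-0.40 to 0.26), Nfil3 (-0.11 to 0.71) and Bhlhe40 (-0.26 to 0.32) in tibialis. The cause was not tested.

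Over all genes, the count between sick and wild type ran from 561 to 3280, 83 to 4159 and 957 to 3881 over the other settings, and between sick and healthy from 814 to 3005, 287 to 3405 and 95 to 2951. Between healthy and wild type it was 1 to 11, 2 to 30 and 58 to 123, beside 1, 5 and 72. For the differences between muscles it was 0, 9 to 79 and 10 to 528, beside 0, 31 and 37, and for wild-type muscles 92 to 677, 221 to 1111 and 768 to 2819. Planned edgeR and DESeq2 fits were not run. Ciart, with 9 counts in its lowest library, is the gene most limited by depth.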
